A study of Mus musculus with 12 samples.

Results

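A set of 10 genes that mark astrocytes or carry out their transport work was followed in the prefrontal cortex (PFC) of Fyn-null and control mice: Gjb6, Aqp4, Sox9, Gfap, Slc1a2, Slc1a3, Glul, Aldh1l1, Slc7a10 and S100b. Every probe set to which the array annotation gives one of these 10 gene symbols was taken, which gave 28 of the 45101 probe sets on the array. Of these, 23 were among the 24770 probe sets that passed a filter on low signal and were tested, and each of the 10 genes kept at least 1. The 5 that did not pass were 1 of 3 probe sets of Sox9, 1 of 5 of Slc1a2, 2 of 6 of Slc1a3 and 1 of 2 of Aldh1l1.

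The study asked how loss of the tyrosine kinase Fyn alters gene expression at rest and after a sedative dose of ethanol. PFC was profiled on Affymetrix mouse arrays in 4 groups of 3 arrays, Fyn-null ethanol, Fyn-null saline, control ethanol and control saline. Per the paper, these dissections also took in neighbouring motor cortex. Fyn-null mice were B6;129S7-Fyntm1Sor/J and control mice were B6129SF2/J, all male. They were obtained at 12 weeks of age, before a period of habituation to the facility. Each array held RNA pooled from 3 mice. All groups, controls included, were accustomed to intraperitoneal saline for 3 days. They then received ethanol at 3.0 g/kg or saline, and tissue was taken 4 hours later. Because the mutants and controls came from separate stocks, effects of the Fyn allele and of the stock background cannot be told apart. The labels call the arrays biological replicates of separate pools, and p-values measure the spread between these pools. In bulk tissue, fewer astrocytes and less RNA per astrocyte cannot be told apart.

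Astrocytes wrap synapses and blood vessels, take up the glutamate and potassium that neurons release, and move water and small metabolites through the tissue. Glutamate enters them through dedicated transporters, is turned into glutamine and is handed back to neurons. Gap junctions made of connexins join astrocytes into a network, and their endfeet on vessels are dense in water channels.

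Signal was given on the log2 scale after RMA, and a difference of 1 is a doubling. Array medians were 5.40 to 5.48 and correlations between arrays 0.982 to 0.997. Fyn itself, on the brighter of its 2 probe sets, was 8.75 to 9.01 in Fyn-null ethanol pools and 9.33 to 9.70 in control ethanol pools. The dimmer one did not fully separate them, at 7.617 to 7.806 in Fyn-null ethanol pools and 7.804 to 7.954 in control ethanol pools. Values of Fyn below are those of the brighter probe set. Under saline, Fyn was at 9.45 in 1 pool whose label is Fyn-null saline (replicate 4) and at 8.74 in 1 pool whose label is control saline (replicate 2), each within the range of the other genotype. The labels were kept, and each count of calls is also given without both pools. The 3' minus 5' difference of the control probe sets, a sign of RNA quality and priming, moved with treatment. For Gapdh it was -0.045 to 0.105 in ethanol pools and 0.106 to 0.529 in saline pools, and for Actb it was 0.707 to 1.15 in ethanol pools and 0.977 to 1.45 in saline pools. The Gapdh ranges did not overlap, although the nearest pools almost touched, so effects of ethanol and of RNA quality cannot be told apart here. A fit with either difference as a covariate cannot separate them, because the covariate itself moves with treatment.

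Over both genotypes, 6 ethanol pools were compared with 6 saline pools to ask which astrocyte genes answered ethanol. Gjb6, which encodes the gap-junction protein connexin 30, rose. Sox9, the transcription factor that marks astrocytes and drives their formation, fell on both of its tested probe sets. Glutamate uptake and the general astrocyte markers gave no call. limma called 3 of the 23 probe sets at an adjusted p under 0.05, against 6.81% of all probe sets tested. Leaving out 1 pool moved the count over all probe sets from 1686 to between 770 and 1625, and the fewest were called without Fyn-null ethanol replicate 2. Split by direction, 1 was higher (2.58% of all probe sets) and 2 were lower (4.22% of all). Of the 6025 probe sets with an unadjusted p under 0.05 (24.3% of all), 6 were astrocyte probe sets. The 10 genes, each by its probe set with the highest mean, split into 5 above and 5 below 0 with a median difference of -0.010, beside -0.038 over all 12323 genes.

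**Figure D1:**
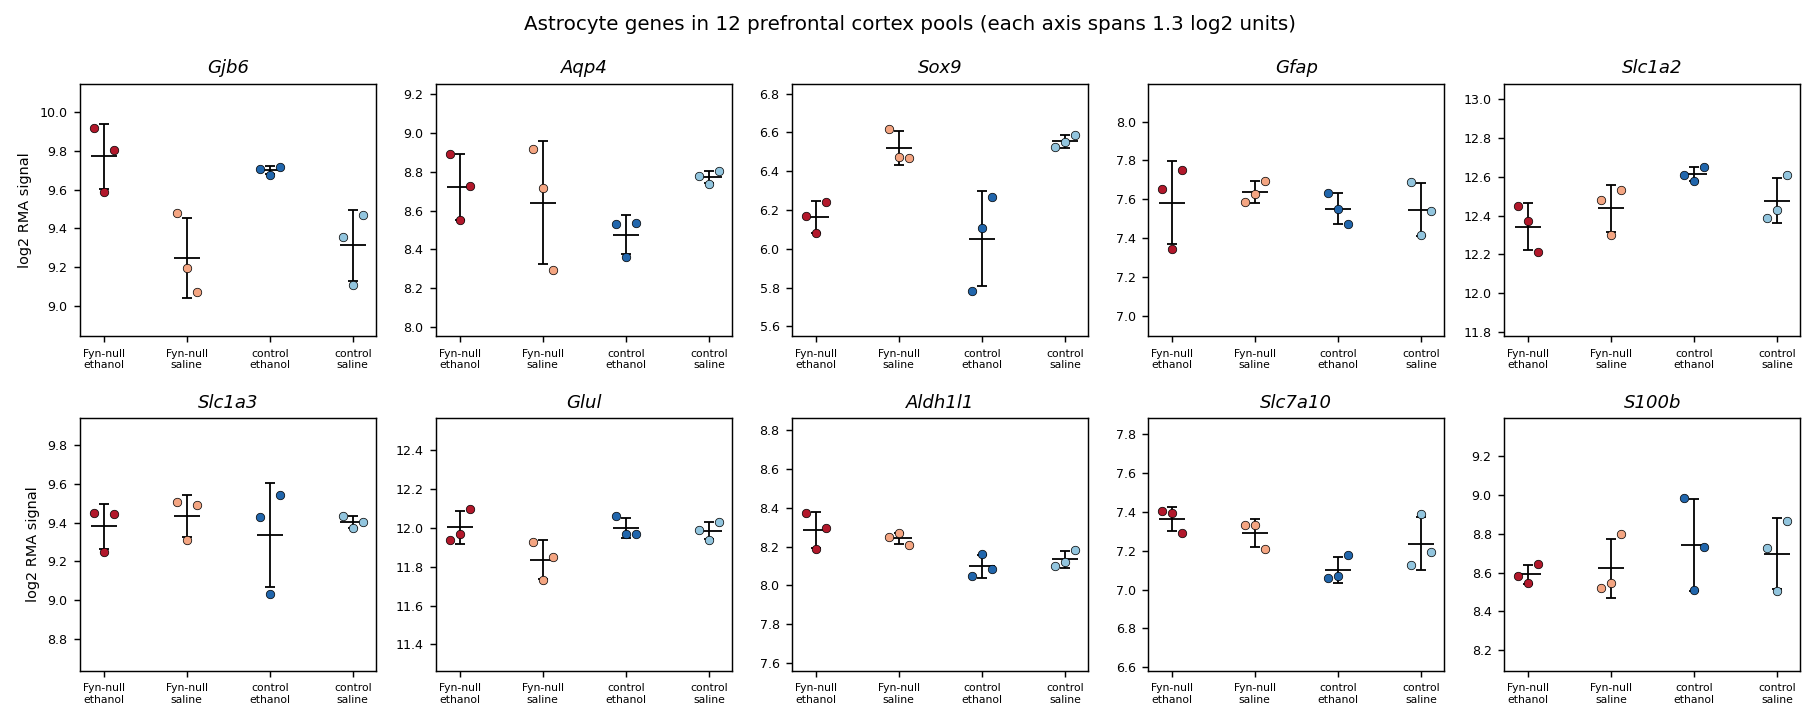
Signal of each of the 10 astrocyte genes (log2 RMA, vertical axis, each panel spanning the same number of log2 units) in the 12 pools, as points, with the group mean and SD over 3 pools as bars. All 6 ethanol pools of Gjb6 (9.59 to 9.92) lie above all 6 saline pools (9.07 to 9.48), and all 6 ethanol pools of Sox9 (lowest 5.78, highest 6.26) lie below all 6 saline pools (6.47 to 6.62).

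Gjb6 was measured by 1 probe set. It had 9.92, 9.59 and 9.81 in Fyn-null ethanol pools, against 9.48, 9.20 and 9.07 in Fyn-null saline pools. In control ethanol pools it had 9.71, 9.68 and 9.71, against 9.36, 9.11 and 9.47 in control saline pools. Every ethanol pool lay above every saline pool, of either genotype. The difference was 0.45 (1.37-fold, standard error 0.086, 95% interval 0.27 to 0.64, adjusted p = 0.00944, limma). Such a separation of 6 from 6 pools was seen for 2 of the 23 probe sets, Gjb6 and Sox9, and for 3.9% of all tested. Without both pools of doubted label Gjb6 differed by 0.36 (adjusted p = 0.0318). With the Gapdh or the Actb 3' minus 5' difference in the fit its difference was 0.53 (adjusted p = 0.126) and 0.58 (adjusted p = 0.154), larger but no longer called. The standard errors were then wider, at 0.132 and 0.135.

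Sox9 had 6.17, 6.08 and 6.24 in Fyn-null ethanol pools on its brighter probe set, against 6.62, 6.47 and 6.47 in Fyn-null saline pools. It had 5.78, 6.11 and 6.26 in control ethanol pools, against 6.52, 6.55 and 6.59 in control saline pools. Control ethanol replicate 1 was the lowest of the 12, and no ethanol pool reached a saline pool. The difference was -0.43 (0.743-fold, standard error 0.077, 95% interval -0.59 to -0.26, adjusted p = 0.00728, limma). Its second probe set, 1424950_at, lay at 5.64 to 6.07 in ethanol pools and 5.89 to 6.23 in saline pools, which overlapped, and differed by -0.34 (adjusted p = 0.0285). Leaving out 1 pool took that second call away (adjusted p at most 0.0715) except for Fyn-null ethanol replicates 1 and 3 and Fyn-null saline replicates 3 and 4. Without both doubted pools the brighter probe set differed by -0.44 (adjusted p = 0.0212) and the second by -0.31 (adjusted p = 0.0754), so 2 of the 23 probe sets were called in place of 3. With the Gapdh covariate the brighter one differed by -0.46 (adjusted p = 0.14) and with the Actb covariate by -0.33 (adjusted p = 0.485).

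**Figure D2:**
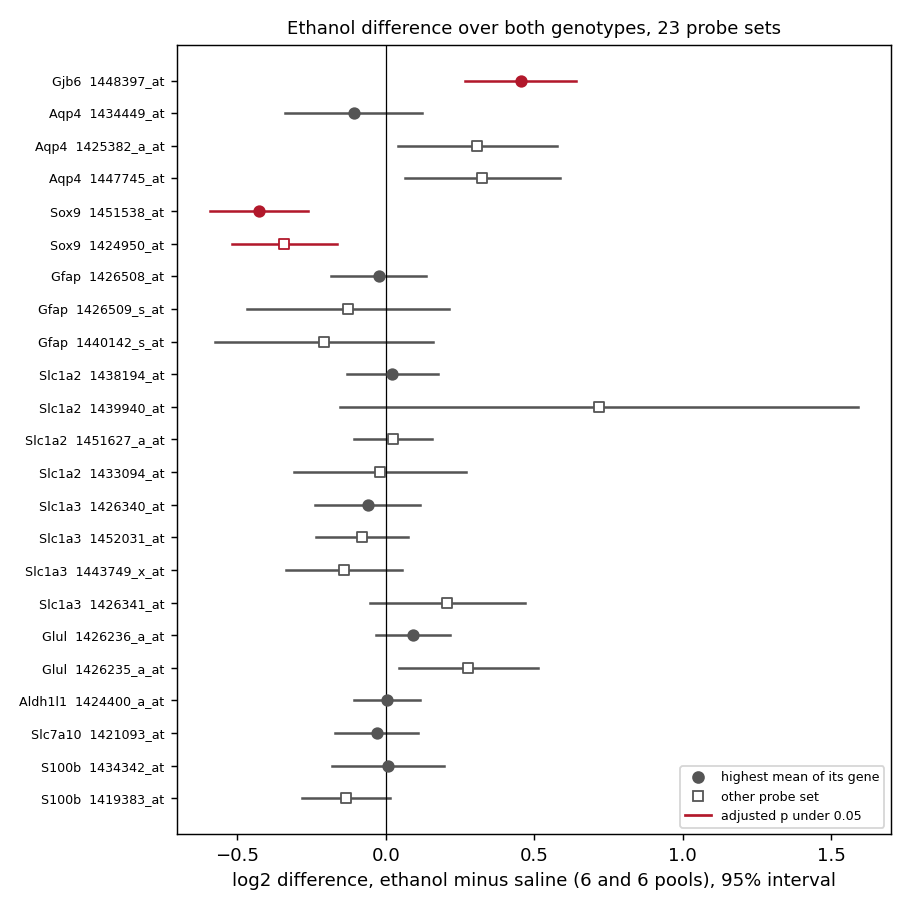
Ethanol minus saline difference (log2, horizontal axis) over both genotypes for the 23 tested probe sets, 6 pools against 6, with 95% intervals. Filled circles are the probe set that stands for its gene, open squares are other probe sets of the gene, and red marks an adjusted p under 0.05, which Gjb6 (0.45) and both Sox9 probe sets (-0.43 and -0.34) reached.

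The sequence upstream of the start of Gjb6 is shown with that of the glutamate transporter gene Slc1a3, which did not pass the test, because the glucocorticoid-induced genes described further on rose in the same pools and the pair differ in whether they hold the letters of a glucocorticoid receptor half-site. Both come from RefSeq (GRCm38.p6) and give the 250 bases before the annotated start, 5' to 3' on the strand of the gene. Capitals mark the letters of a searched motif.
Gjb6 (chr14:57133612-57133861, minus strand): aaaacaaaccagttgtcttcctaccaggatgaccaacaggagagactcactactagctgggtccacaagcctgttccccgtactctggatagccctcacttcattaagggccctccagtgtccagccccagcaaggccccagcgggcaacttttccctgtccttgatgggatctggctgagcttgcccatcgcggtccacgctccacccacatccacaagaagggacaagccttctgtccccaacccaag
Slc1a3 (chr15:8710808-8711057, minus strand): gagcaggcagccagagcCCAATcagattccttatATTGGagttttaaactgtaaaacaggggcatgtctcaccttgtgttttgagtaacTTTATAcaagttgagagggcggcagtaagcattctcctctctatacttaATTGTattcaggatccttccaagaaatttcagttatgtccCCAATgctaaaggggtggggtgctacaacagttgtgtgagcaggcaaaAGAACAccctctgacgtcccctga
The motifs searched, on both strands, were the glucocorticoid receptor half-site AGAACA, the SOX core ACAAT, the E-box CACGTG, the cAMP response element TGACGTCA, the CCAAT box CCAAT and the TATA box TATAAA, and no matches overlapped. The Gjb6 window held none of them. The Slc1a3 window held AGAACA 24 bases before the start and the reverse of the SOX core, ATTGT, 112 bases before it, besides 3 CCAAT boxes and a TATA box on the reverse strand. Of 32851 RefSeq windows of the same length, 16.1% held the half-site, 27.7% the SOX core, 6.02% the E-box, 1.55% the cAMP response element, 33.8% the CCAAT box and 12.4% the TATA box. Windows were at hand for 8 of the 10 genes, and among those 8 the half-site was in Slc1a3 only. A match is a description of letters, not of a site in use. The pair was chosen for its difference in the half-site, and glucocorticoid control of either gene was not tested.

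Aqp4, the water channel of astrocyte endfeet, was read by 3 tested probe sets that disagreed in direction. The brightest had 8.89, 8.55 and 8.72 in Fyn-null ethanol pools, against 8.92, 8.71 and 8.29 in Fyn-null saline pools. It had 8.53, 8.36 and 8.53 in control ethanol pools, against 8.78, 8.74 and 8.80 in control saline pools. Control ethanol pools thus all lay below control saline pools, whereas the Fyn-null pools overlapped, and over both genotypes the difference was -0.11 (95% interval -0.34 to 0.12, adjusted p = 0.577). The other 2 probe sets were higher after ethanol, by 0.31 (adjusted p = 0.145) and 0.33 (adjusted p = 0.118), with overlapping pools. No direction was taken for Aqp4.

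Slc1a2 and Slc1a3 encode GLT-1 and GLAST, the main astrocyte glutamate transporters, and Glul encodes glutamine synthetase, which turns glutamate into glutamine. Slc1a2 lay at 12.21 to 12.65 in ethanol pools and 12.30 to 12.61 in saline pools on its brightest probe set. Its difference was 0.022 (95% interval -0.13 to 0.17, adjusted p = 0.883). A further Slc1a2 probe set, 1439940_at, ran between 6.80 and 9.09 in ethanol pools and between 5.32 and 7.75 in saline pools, the widest spread among the 23, and its difference of 0.72 had a standard error of 0.405 (adjusted p = 0.301). Slc1a3 lay at 9.03 to 9.54 in ethanol pools and 9.31 to 9.50 in saline pools, a difference of -0.061 (95% interval -0.24 to 0.12, adjusted p = 0.69). Its other 3 tested probe sets differed by -0.081, -0.14 and 0.21, none called.

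Glul had 11.94, 11.97 and 12.10 in Fyn-null ethanol pools, against 11.93, 11.73 and 11.85 in Fyn-null saline pools. Control ethanol pools had 12.06, 11.97 and 11.97, against 11.99, 11.94 and 12.03 in control saline pools. The Fyn-null pools did not overlap, although the nearest almost touched, and the control pools did, and over both genotypes Glul differed by 0.090 (95% interval -0.035 to 0.22, adjusted p = 0.369). Its second probe set had 9.16 to 9.92 in ethanol pools and 9.03 to 9.17 in saline pools, and differed by 0.28 (adjusted p = 0.135). Both probe sets leaned upward and neither was called.

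None of the structural and general markers was called. Gfap, the intermediate filament of astrocytes, differed by -0.024 (95% interval -0.19 to 0.14), Aldh1l1, a folate enzyme used to label astrocytes, by 0.0038 (-0.11 to 0.12), and S100b, a calcium-binding protein, by 0.0063 (-0.18 to 0.20). Slc7a10, the transporter Asc-1 that carries serine and glycine, differed by -0.032 (-0.17 to 0.11). Their adjusted p-values were 0.811 to 0.974, and ethanol and saline pools overlapped for all 4 genes. Of their further tested probe sets, those of Gfap differed by -0.13 (adjusted p = 0.664) and -0.21 (adjusted p = 0.484) and that of S100b by -0.14 (adjusted p = 0.246). In control mice the dimmest Gfap probe set differed by -0.55 (adjusted p = 0.188), with a mean near the floor in ethanol pools (4.89).

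Within each genotype, 3 ethanol pools were compared with 3 saline pools. In Fyn-null mice none of the 23 probe sets was called by limma, 3 had an unadjusted p under 0.05, and the share called over all probe sets was 0.4% (2903 with an unadjusted p under 0.05). Gjb6 was nearest, at 0.52 (standard error 0.124, adjusted p = 0.108), with no overlap between ethanol and saline pools. Such a separation of 3 from 3 was seen for 6 of the 23 in Fyn-null mice and for 18.1% of all probe sets. In control mice it was seen for 4 of the 23 and for 23% of all. In control mice 2 were called, both of Sox9, beside 1.43% of all probe sets. Leaving out 1 pool gave 33 to 145 calls over all probe sets in Fyn-null mice, against 99 with all pools, and 76 to 410 in control mice, against 355. Sox9 differed there by -0.50 (standard error 0.110, adjusted p = 0.0473) on the brighter probe set and by -0.49 (adjusted p = 0.0437) on the other, without overlap on either. In Fyn-null mice the brighter Sox9 probe set differed by -0.35 (adjusted p = 0.231), and in control mice Gjb6 differed by 0.39 (adjusted p = 0.131). Leaving out both doubted pools, or fitting only the control groups, left 0 of the 23 called in control mice, with Sox9 at -0.50 in each (adjusted p = 0.101 and 0.149). Leaving out any 1 pool other than control ethanol replicate 4 also took the brighter Sox9 probe set over the threshold, to adjusted p-values of at most 0.14.

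The difference between the ethanol responses of the genotypes was itself tested, Fyn-null minus control. No probe set of the 23 was called by limma (0% of all tested), 1 had an unadjusted p under 0.05, and over all probe sets 1023 did (4.13%). The difference was 0.14 for Gjb6 (95% interval -0.25 to 0.52) and 0.15 for Sox9 (-0.19 to 0.48), so neither response was shown to differ between Fyn-null and control mice. Without both doubted pools the count stayed at 0 for this difference and for ethanol in Fyn-null mice. Among the brightest probe sets Aqp4 had the smallest p, with 0.38 (standard error 0.196, adjusted p = 0.992).

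**Figure D3:**
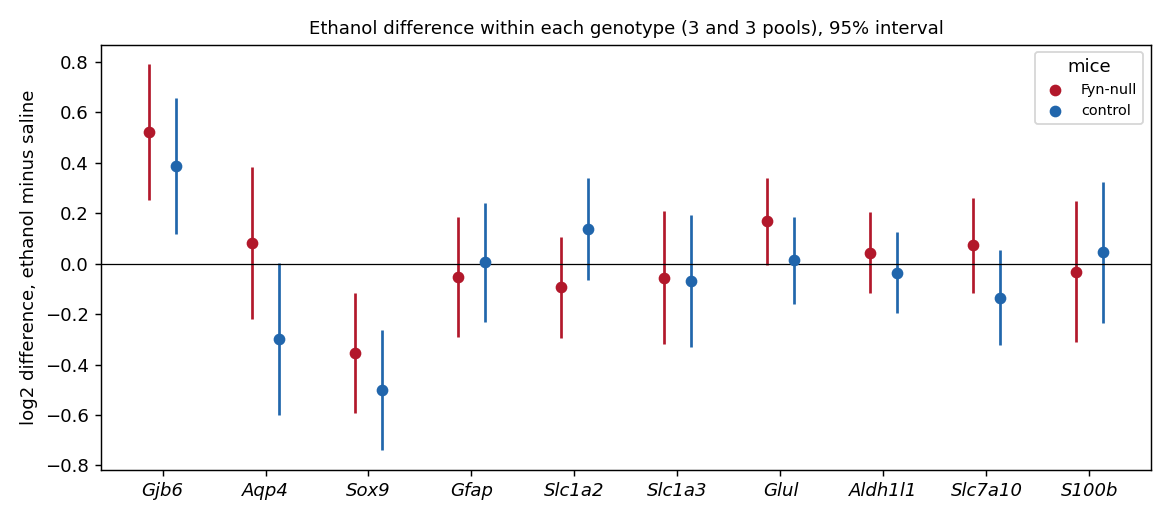
Ethanol minus saline difference (log2, vertical axis) of each astrocyte gene in Fyn-null mice (red) and control mice (blue), 3 pools against 3, with 95% intervals. Gjb6 lies above 0 and Sox9 below 0 in both genotypes (Gjb6 0.52 and 0.39, Sox9 -0.35 and -0.50), and the 2 intervals overlap for all 10 genes.

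Between genotypes no astrocyte probe set was called over both treatments, after ethanol or after saline, nor was any of the 24770 probe sets (0% in each, limma). That count over all probe sets was not stable over both treatments, with 57 called without Fyn-null saline replicate 4, 129 without control saline replicate 2 and 669 without both. After ethanol it was at most 35 without 1 pool, again control saline replicate 2, and 260 without both. After saline it was 0 without any 1 pool and 44 without both. At an unadjusted p under 0.05 the astrocyte counts were 4, 4 and 0, beside 2739, 3380 and 467 over all probe sets. Aldh1l1 had 8.19 to 8.38 in Fyn-null pools with a median of 8.26, and 8.05 to 8.18 in control pools with a median of 8.11. The pools did not overlap, although the nearest were almost equal, and the difference was 0.15 (standard error 0.052, adjusted p = 0.355). Such a separation of 6 from 6 was seen for 1 of the 23 and for 0.307% of all probe sets. It held also for both pools of doubted label.

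After ethanol, Fyn-null and control pools did not overlap for 6 of the 23 probe sets, none called, beside 20.3% of all probe sets. After saline this held for 2 of the 23 and 5.16% of all. Slc7a10 had 7.41, 7.40 and 7.29 in Fyn-null ethanol pools, against 7.06, 7.07 and 7.18 in control ethanol pools, a difference of 0.26 (adjusted p = 0.219). Slc1a2 had 12.45, 12.37 and 12.21 in Fyn-null ethanol pools, against 12.61, 12.58 and 12.65 in control ethanol pools, a difference of -0.27 (adjusted p = 0.23). Aldh1l1 differed by 0.19 (adjusted p = 0.295) in the same comparison. After saline the smallest p was that of Glul, at -0.15 (adjusted p = 1), and the count after saline was 0 also without both doubted pools.

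One probe set of Gfap, 1440142_s_at, chosen after its values were seen, had the largest genotype difference after ethanol among the 23. It had 5.92, 5.80 and 6.09 in Fyn-null ethanol pools and 6.06, 5.44 and 5.92 in Fyn-null saline pools. It had 5.15, 4.66 and 4.86 in control ethanol pools and 4.95, 5.67 and 5.70 in control saline pools. The mean of the control ethanol pools, 4.89, was below the lowest mean kept (5.146), so that group was near the floor. The probe set passed the filter only through its other pools, and its size of difference from control ethanol pools is uncertain. Fyn-null and control pools were separate after ethanol and overlapped after saline. After ethanol it differed by 1.05 (2.07-fold, standard error 0.209, 95% interval 0.59 to 1.5, adjusted p = 0.106), and over both treatments by 0.71 (adjusted p = 0.316). Without both doubted pools it was called, at 1.05 after ethanol (adjusted p = 0.0449) and 0.80 over both treatments (adjusted p = 0.0401). Both doubted pools are saline pools, so the ethanol pools compared were the same and the difference after ethanol was unchanged (standard error 0.21). Calls over all probe sets also rose without both pools, as given above. The other Gfap probe sets differed after ethanol by 0.030 and 0.29, neither called, so the probe sets of Gfap disagreed in size.

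**Figure D4:**
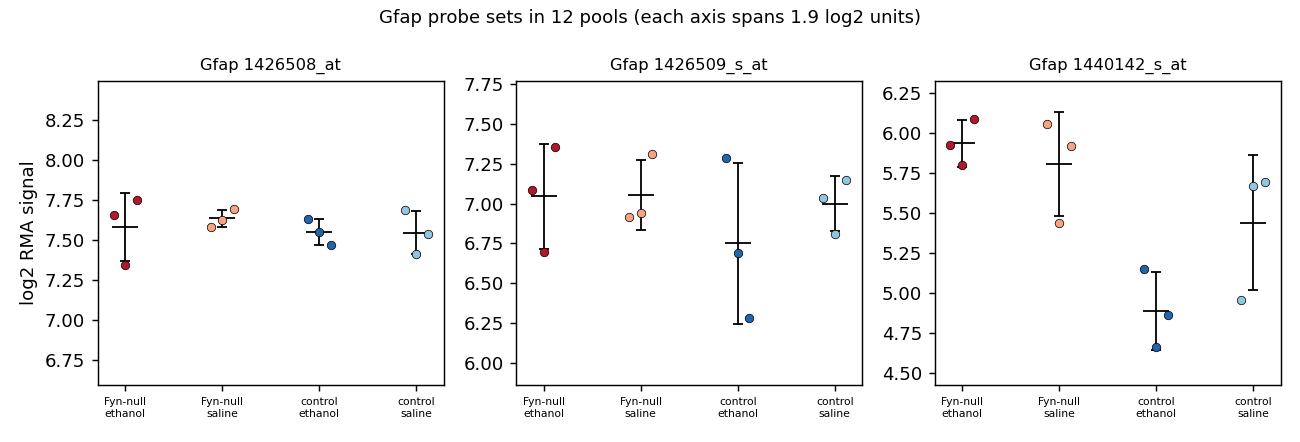
Signal of the 3 tested Gfap probe sets (log2 RMA, vertical axis, each panel spanning the same number of log2 units) in the 12 pools, as points, with group mean and SD over 3 pools. On 1440142_s_at all 3 Fyn-null ethanol pools (5.80 to 6.09) lie above all 3 control ethanol pools (4.66 to 5.15), whereas the groups overlap on the other 2 probe sets. The control ethanol pools of 1440142_s_at are near the floor.

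Further astrocyte genes were read as lists, each gene by its brightest probe set and beside 1.89% higher and 4.8% lower calls over all 12323 genes. Of 29 tested other astrocyte markers, 0 rose and 2 fell over both genotypes, with a median difference of -0.11 (7 above and 22 below 0). Slco1c1, a thyroid hormone transporter found in astrocytes and brain endothelium, had 8.21 to 8.47 in ethanol pools and 8.80 to 9.07 in saline pools (-0.61, adjusted p = 0.000233). Bmpr1b, a BMP receptor, fell by 0.36 (adjusted p = 0.0372). Of genes chosen after their values were seen, Gja1, the other main astrocyte connexin beside Gjb6, differed by -0.0078 (adjusted p = 0.972), and Kcnj10, the endfoot potassium channel, by -0.082 (adjusted p = 0.613).

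Among 14 astrocyte transcription factors 2 fell and 0 rose, with a median of -0.049. Sox2, a partner of Sox9 in the SOX family, had 7.59, 7.00 and 7.48 in Fyn-null ethanol pools, against 8.41, 8.01 and 7.99 in Fyn-null saline pools. It had 7.17, 7.14 and 7.23 in control ethanol pools, against 8.36, 8.20 and 8.49 in control saline pools. No ethanol pool reached a saline pool, and the difference was -0.97 (0.509-fold, standard error 0.116, adjusted p = 0.000539). Id3, an inhibitor of bHLH factors, fell by 0.33 (adjusted p = 0.0211). Of the 9 tested partners in the glutamate and glutamine cycle 2 fell, both glutamine transporters, Slc38a5 by 0.57 (adjusted p = 0.00678) and Slc38a3 by 0.18 (adjusted p = 0.0433), and the list median was -0.043. Slc38a5 was near the floor, at 4.67 to 4.99 in ethanol pools and 5.18 to 5.74 in saline pools. Its ethanol pools all lay below the lowest mean kept (5.146), so it passed the filter only through its saline pools. None of 8 endfoot and gap-junction partners was called (median -0.097), where the smallest p-values were those of the connexin gene Gjb2, at -0.34 (adjusted p = 0.0658), and of Mlc1, at -0.18 (adjusted p = 0.115). Of 7 reactive astrocyte genes 1 fell, the small heat shock protein gene Hspb1, by 0.63 (adjusted p = 0.00103), and the list median was 0.038.

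**Figure D5:**
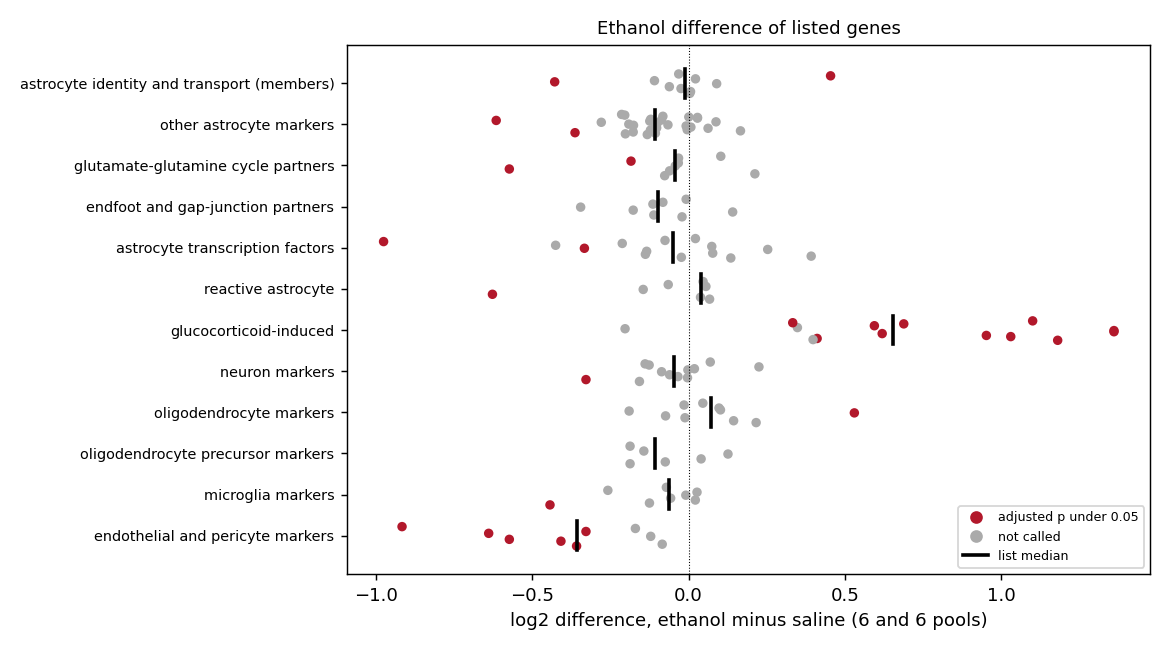
Ethanol minus saline difference (log2, horizontal axis) of each tested gene, as a point, in the 10 astrocyte genes and 11 other lists, over both genotypes, with the list median as a bar and red for an adjusted p under 0.05. The astrocyte genes have a median of -0.010, the glucocorticoid-induced genes one of 0.65 and the endothelial and pericyte markers one of -0.36.

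The glucocorticoid-induced genes and the endothelial and pericyte markers moved with treatment in the same pools, and their part in the differences above was not tested. Few markers of the other cell types were called. Of 14 glucocorticoid-induced genes 11 rose and 0 fell, with a median of 0.65, led by Tsc22d3 (1.36) and Fkbp5 (1.36). Among the 11, Arrdc2 was near the floor in saline pools, with a median of 5.035 against a lowest mean kept of 5.146. Arrdc2 passed the filter only through its ethanol pools. Of 9 endothelial and pericyte markers 6 fell, with a median of -0.36, and their mean signal was 6.82 to 7.19 in ethanol pools and 7.29 to 7.50 in saline pools. Neuron markers had 1 of 12 lower (the neurofilament gene Nefm, median of the list -0.047), microglia markers 1 of 8 lower (Aif1, list median -0.064), oligodendrocyte markers 1 of 10 higher (the myelin gene Mal, list median 0.071) and oligodendrocyte precursor markers 0 of 6 called (median -0.11). The mean signal of the 10 astrocyte genes overlapped, at 8.90 to 9.08 in ethanol pools and 8.95 to 9.07 in saline pools. Without both doubted pools the list counts were the same except for 1 in place of 2 glutamine cycle genes, Slc38a5, and 1 in place of 0 endfoot and gap-junction genes, Gjb2 (-0.46, adjusted p = 0.0212). With the Actb covariate no gene of the astrocyte lists was called except Hspb1 (adjusted p = 0.0464), 0 of 9 endothelial and pericyte markers fell (list median -0.41) and 6 of 14 glucocorticoid-induced genes rose (list median 0.82). Sox2 then differed by -0.83 (adjusted p = 0.133) and Slco1c1 by -0.53 (adjusted p = 0.0792). With the Gapdh covariate the calls among astrocyte lists were Slco1c1 (adjusted p = 0.0123) and Hspb1 (adjusted p = 0.0303), and 2 of 9 endothelial and pericyte markers fell (list median -0.32) and 10 of 14 glucocorticoid-induced genes rose (list median 0.79). Sox2 then differed by -0.88 (adjusted p = 0.0615).

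The genes whose signal most resembled that of Sox9, the astrocyte gene with the smallest p, were found by Pearson correlation over the 12 pools. They were Thumpd1 (r = 0.974), the AMPA receptor subunit gene Gria2 (0.966), the neuronal RNA-binding protein gene Elavl2 (0.963), Pdcd11 (0.958) and the glucocorticoid receptor gene Nr3c1 (0.952). These correlations include the difference between ethanol and saline pools, and with group means removed they were 0.964, 0.943, 0.822, 0.80 and 0.831 in the same order. The 5 genes were picked by the highest correlation over these same pools, so these values are not independent of that choice. Within groups Sox9 varied mostly in control ethanol pools (SD 0.245, against 0.033 to 0.085 in the other groups), where replicate 1 was lowest. The correlations with group means removed rest largely on that group. Elavl2, Pdcd11 and Nr3c1 were lower in ethanol pools (adjusted p = 0.0145, 0.00094 and 0.0161), whereas Thumpd1 and Gria2 were not called. None of the 5 is an astrocyte marker of the lists used.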

How the data were processed

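RNA of 12 PFC pools, 3 per group, was hybridised to Affymetrix whole-genome mouse arrays. The authors deposited log2 signal per probe set, summarised with affy and RMA per the submitters' processing notes. No versions were given in the sources used here, which also do not say whether the methods' batch-effect step preceded deposition. S-scores were not computed, since they start from probe-level intensities.

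The 64 control probe sets were dropped, as was the dimmest 45% of the remaining 45037 (mean over all arrays below 5.146), leaving 24770. All of these were fitted together with limma 3.58.1 in R 4.3.3 (lmFit, eBayes). An additive model of genotype and treatment served for the differences over both genotypes and over both treatments, and a model of the 4 group means for the rest. Calls were made at a Benjamini-Hochberg adjusted p under 0.05 across the 24770. The array annotation gives 34958 probe sets 1 gene symbol, 932 several and 9211 none. The 28 astrocyte probe sets all matched a RefSeq gene of the same symbol by gene ID, and 1 probe set naming Slc1a2 together with another gene was not used. A gene was represented by its probe set with the highest mean. All 10 genes were named for ethanol over both genotypes, and for other comparisons those called or else the one with the smallest p. From other lists up to 4 called genes were named, or else the pair with the smallest p. The text marks genes picked outside this rule. The 10 genes, the lists and the tests were chosen with earlier results of these data known. Precision is set by the number of pools (median standard error 0.076 for 6 against 6 pools, 0.108 for 3 against 3). The fits were tested on simulated data. Alternatives tried were no filter, a 60% filter, quantile normalization on top of RMA, a replicate block, a robust eBayes with a trend, arrayWeights, fits restricted to the pair of groups compared, averaging the probe sets of each gene, and leaving out each pool. Chosen after seeing the data were leaving out both pools of doubted label and taking the Actb or Gapdh 3' minus 5' difference as a covariate.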

Additional observations from a re-analysis of the deposited data

How the results depend on the processing

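Over both genotypes, Gjb6 and the brighter Sox9 probe set kept their direction and call under every alternative except the Actb and Gapdh covariates, under which 0 of the 23 probe sets were called (30 and 110 of all, against 1686). Leaving out 1 pool gave 2 to 3 calls, with Gjb6 at 0.41 to 0.50 (adjusted p at most 0.026) and Sox9 at -0.47 to -0.36 (adjusted p at most 0.0224), and the second Sox9 probe set lost its call in 8 of 12 cases (adjusted p at most 0.0715). In Fyn-null mice 1 was called after a further quantile normalization (Gjb6, with 155 of all 24770 called against 99) and 3 with arrayWeights (Gjb6, Sox9 and Glul, with 2781 of all). Leaving out any 1 pool left 0. Averaging the probe sets of each gene called Gjb6 there (0.52, adjusted p = 0.044). Gjb6 has 1 probe set, so its values did not change. That fit ran over 12323 genes in place of 24770 probe sets (standard error 0.117 against 0.124), and calls over all genes were not counted in it. In control mice the 2 Sox9 calls became 0 without the filter and 1 with the 60% filter, which left the second Sox9 probe set untested. They became 0 in the fit of only the 2 groups, 0 without both doubted pools, 0 with either covariate and 0 to 1 without 1 pool. Between genotypes 1 Gfap probe set was called without both doubted pools, over both treatments (669 of all) and after ethanol (260 of all). After ethanol 1 was called in the fit of only the 2 groups (193 of all) and 4 with arrayWeights (3975 of all), whose estimation stopped before convergence in 1 fit.

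Signs of small differences turned: Aqp4 to 0.175 and S100b to -0.0648 by the mean of all probe sets, Gfap to 0.000956 by quantile normalization and 0.00487 with the Gapdh covariate, Aldh1l1 to -0.00804 without both doubted pools. Leaving out 1 pool gave -0.0581 to 0.0325 for Gfap, -0.00919 to 0.0639 for Slc1a2, -0.107 to 0.0065 for Slc1a3, -0.0204 to 0.0216 for Aldh1l1, -0.0616 to 0.0144 for Slc7a10 and -0.052 to 0.0533 for S100b. The cause was not tested.

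A shared replicate number was not taken as a pairing. Residuals correlated above 0.1 in 3 of the 13 same-number pairs (lowest -0.432, highest 0.322), and 2 of 12 arrays had their closest match under their own number. With the replicate block 710 probe sets were called over both genotypes, Gjb6 at 0.45 (adjusted p = 0.0305) and Sox9 at -0.41 (adjusted p = 0.0353), the second Sox9 probe set lost its call (adjusted p = 0.0693), S100b was -0.00104, and the 2 Sox9 calls in control mice became 0 (36 of all probe sets against 355).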
